A study of Mus musculus with 37 samples.

Results

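The interleukin-6 (IL-6) family was described here as 10 genes, chosen by symbol from the 24421 gene symbols of the count table. They were the cytokines Il6, Il11, Lif and Osm, the receptor chains Il6ra, Il6st, Osmr and Lifr, the transcription factor Stat3 and its feedback inhibitor Socs3. All 10 were in the table and all 10 passed the filter on low counts in each of the 3 fits used for the reported values. Whole transcriptome sequencing had been made from 37 libraries of mice labelled WT, which were BALB/c females by the study's methods. BBN-treated mice had received the bladder carcinogen N-butyl-N-(4-hydroxybutyl) nitrosamine in drinking water at 0.05% from 6 to 7 weeks of age, by the study's methods. The methods place sacrifice at 17 to 20 weeks of BBN, and the study's figure legends give 18 weeks. Untreated mice had received tap water. UT was the ureter side with cancer after BBN (10 libraries from 9 mice), UN the ureter side without cancer after BBN (7 libraries from 7 mice) and U the ureter of untreated mice (6 libraries, both ureters of 3 mice). BB was the bladder of BBN-treated mice (9 libraries) and B the bladder of the same 3 untreated mice (3 libraries). The study's figures on these comparisons count 10 UT libraries, and its text does not name the one left out. UT 9, the UT library left out here, and the bladder of mouse 6 (BB 6), whose library name carries a T, were kept out of the fits, and their values are given separately.

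The cytokines of this family share gp130, the receptor chain encoded by Il6st, which carries the signal into the cell. IL-6 and IL-11 first bind their own receptors, encoded by Il6ra and Il11ra1, while leukemia inhibitory factor (Lif) and oncostatin M (Osm) join gp130 with the chains encoded by Lifr and Osmr. Janus kinases bound to these chains then phosphorylate STAT3, which enters the nucleus and activates genes such as Socs3, whose protein binds gp130 and ends the signal. In epithelia the pathway is known for its part in injury, inflammation and regeneration.

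In both ureter groups of BBN-treated mice, all 4 cytokines and Socs3 were called higher than in untreated ureters. There gp130, Il6ra, Lifr and Stat3 were not called different. With the counts of both ureters of a mouse in the same group summed, all 5 stayed called in UT, beside 25.6% of all genes. In UN only Il6 and Socs3 stayed called, beside 0.982% of all genes. In the bladder, Il11, Lif and Socs3 were higher after BBN. Between the cancer side and the other side of the ureter, edgeR called no member in the reported fit. DESeq2 called Lif, as did edgeR under some other settings. In GENCODE vM21 (GRCm38), Osm (chr11:4236420-4241026) and Lif (chr11:4257557-4272514) are close together on the plus strand of chromosome 11. Il6 lies at chr5:30013114-30019981, Il11 at chr7:4772373-4782859, Stat3 at chr11:100885098-100939540 and Socs3 at chr11:117966079-117970047. The receptor genes are Il6ra (chr3:89864059-89913196), Il6st (chr13:112464070-112510086), Osmr (chr15:6813577-6874969) and Lifr (chr15:7090614-7197489). All libraries are of whole tissue, in which more cells of a type cannot be told apart from more RNA per cell.

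Sequence before a RefSeq start of the 4 members that were higher after BBN in the ureter and had an entry is shown first. They were chosen since all 4 were called higher in UT and in UN against U. The RefSeq promoter table (GRCm38.p6) held 9 of the 10 members, and Osm was not among them. The 250 bases before each listed start were searched on both strands for a STAT motif (TTCNNNGAA), an AP-1 motif (TGANTCA) and an NF-kB motif (3 G, 2 bases of any kind, 2 T, 1 base of any kind and 2 C), and matches are in capitals. Each line is written 5′ to 3′ on the strand of the gene.
Il6 (chr5:30012864-30013113, plus strand): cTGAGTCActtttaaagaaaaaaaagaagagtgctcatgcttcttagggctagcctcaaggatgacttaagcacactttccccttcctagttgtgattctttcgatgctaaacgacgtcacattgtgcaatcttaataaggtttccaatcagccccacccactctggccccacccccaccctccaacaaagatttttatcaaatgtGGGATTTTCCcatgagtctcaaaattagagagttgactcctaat
Il11 (chr7:4778142-4778391, minus strand): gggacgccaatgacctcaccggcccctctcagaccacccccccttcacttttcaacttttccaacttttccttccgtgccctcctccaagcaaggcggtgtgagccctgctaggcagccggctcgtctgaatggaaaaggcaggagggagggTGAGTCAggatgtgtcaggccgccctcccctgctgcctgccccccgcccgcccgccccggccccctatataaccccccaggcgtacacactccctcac
Lif (chr11:4257318-4257567, plus strand): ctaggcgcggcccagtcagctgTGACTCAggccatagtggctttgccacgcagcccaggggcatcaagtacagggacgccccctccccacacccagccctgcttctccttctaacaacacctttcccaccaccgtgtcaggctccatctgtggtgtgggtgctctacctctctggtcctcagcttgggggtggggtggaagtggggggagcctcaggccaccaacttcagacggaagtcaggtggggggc
Socs3 (chr11:117969367-117969616, minus strand): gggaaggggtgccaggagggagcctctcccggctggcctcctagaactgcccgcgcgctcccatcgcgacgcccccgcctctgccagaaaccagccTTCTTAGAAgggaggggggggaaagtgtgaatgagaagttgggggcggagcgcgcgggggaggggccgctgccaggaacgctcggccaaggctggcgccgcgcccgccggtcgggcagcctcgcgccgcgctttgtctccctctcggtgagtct

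Over all 32536 windows of this length in the table, 7.04% held the STAT motif, 6.73% the AP-1 motif and 4.11% the NF-kB motif. The Socs3 window held 1 STAT match, TTCTTAGAA, at -154 to -146 from the listed start. The Il6 window held an AP-1 match at -249 to -243 and an NF-kB match, GGGATTTTCC, at -44 to -35. Il11, shown at 1 of its 2 listed starts, held an AP-1 match at -98 to -92, while the window at its other start held no match. Lif held one at -228 to -222. The windows of Il6ra, Il6st, Osmr, Lifr and Stat3 held no match to the 3 motifs. The Socs3 window and the Il11 window shown lie within the GENCODE vM21 spans of their genes. GENCODE vM21 places the start of the coding Socs3 transcript downstream of the window shown. A match is a run of letters and was not tested for binding.

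Library totals ranged from 3557697 to 18793560 counts, so that 1 count was worth between 0.0532 and 0.281 CPM (counts per megacount, the count scaled by the library total). Summed marker genes were used to check the labelled tissues. Urothelial markers summed to between 1253 and 4020 CPM in UT, 1013 and 2036 in U, 511 and 4047 in BB, and 15170 and 15798 in B. In UN they ranged from 10.4 to 2861, and UN 2, with 10.4 CPM, held almost no urothelial RNA. Adipocyte markers took between 36134 and 56194 CPM in U but between 29.0 and 18690 in UT, and between 67.8 and 1530 in B. UT 9, kept out of the fits, lay outside both UT ranges, with 423 CPM of urothelial and 30422 CPM of adipocyte markers. UT 4 also held kidney tubule RNA, with 2098 CPM of its markers. RNA integrity numbers (RIN) under 5 were recorded for BB 1, BB 3, BB 4, UN 6 and U 1R.

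A gene was called when edgeR's quasi-likelihood test gave a Benjamini-Hochberg false discovery rate (FDR) under 0.1 and the change was at least 2-fold. The first comparison asked how the cancer side of the ureter differed from untreated ureter. Over 15615 genes tested, 18.6% were called higher in UT than in U and 14.4% lower. Of the 10 members, 5 were called higher and none lower. The median log2 fold change was 1.82 over the members and 0.077 over all genes tested.

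Il6, the founding cytokine of the family, was almost absent from untreated ureter. Its level in U was 0 CPM in 3 libraries and at most 0.231 CPM in the others, with 0 to 3 counts per library. In UT it ranged from 1.03 to 5.34 CPM (median 1.76), or 10 to 72 counts. Every UT library was therefore above every U library. It was higher in UT by 4.22 on the log2 scale (SE 0.82, edgeR FDR = 3.4e-04), a size that depends on the few counts in U. UT 9 had 1.91 CPM.

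Il11, a cytokine of stromal and epithelial repair, ranged from 0.296 to 0.865 CPM in U (median 0.367) and from 1.82 to 8.11 CPM in UT (median 3.78). The 2 groups did not overlap. It was higher in UT by 2.83 on the log2 scale (SE 0.65, edgeR FDR = 0.00129). Most of its values were fractional in the deposited table, in 97.3% of the libraries, so that the counting had divided some reads.

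Lif, a cytokine known for keeping stem cells undifferentiated, ranged from 0.257 to 0.867 CPM in U (median 0.500). In UT it ranged from 3.48 to 26.8 CPM (median 7.37), and UT 2 and UT 10 stood highest, at 26.8 and 25.3 CPM. No UT library of the fit overlapped U. The log2 fold change was 3.86 (SE 0.66, edgeR FDR = 1.17e-04). UT 9 had only 0.970 CPM, close to the highest U library, and its adipocyte markers summed to 30422 CPM.

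Osm, a cytokine made largely by myeloid cells, ranged from 0.106 to 0.510 CPM in U (median 0.223) and from 1.11 to 12.5 CPM in UT (median 3.50). UT 2 was again highest, and the groups did not overlap. The log2 fold change was 3.61 (SE 0.61, edgeR FDR = 9.68e-05). UT 9, at 5.44 CPM, was above all but 1 of the UT libraries of the fit.

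Socs3, the feedback inhibitor, was the most abundant of the 5. It varied little in U, from 3.65 to 4.87 CPM (4.27 ± 0.563, SD, n = 6), and ranged from 32.9 to 117 CPM in UT (70.7 ± 23.1, SD, n = 10). The lowest UT library was thus more than 6 times the highest U library. Its log2 fold change was 3.72 (SE 0.44, edgeR FDR = 5.46e-06). UT 9 had 29.6 CPM.

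**Figure D1:**
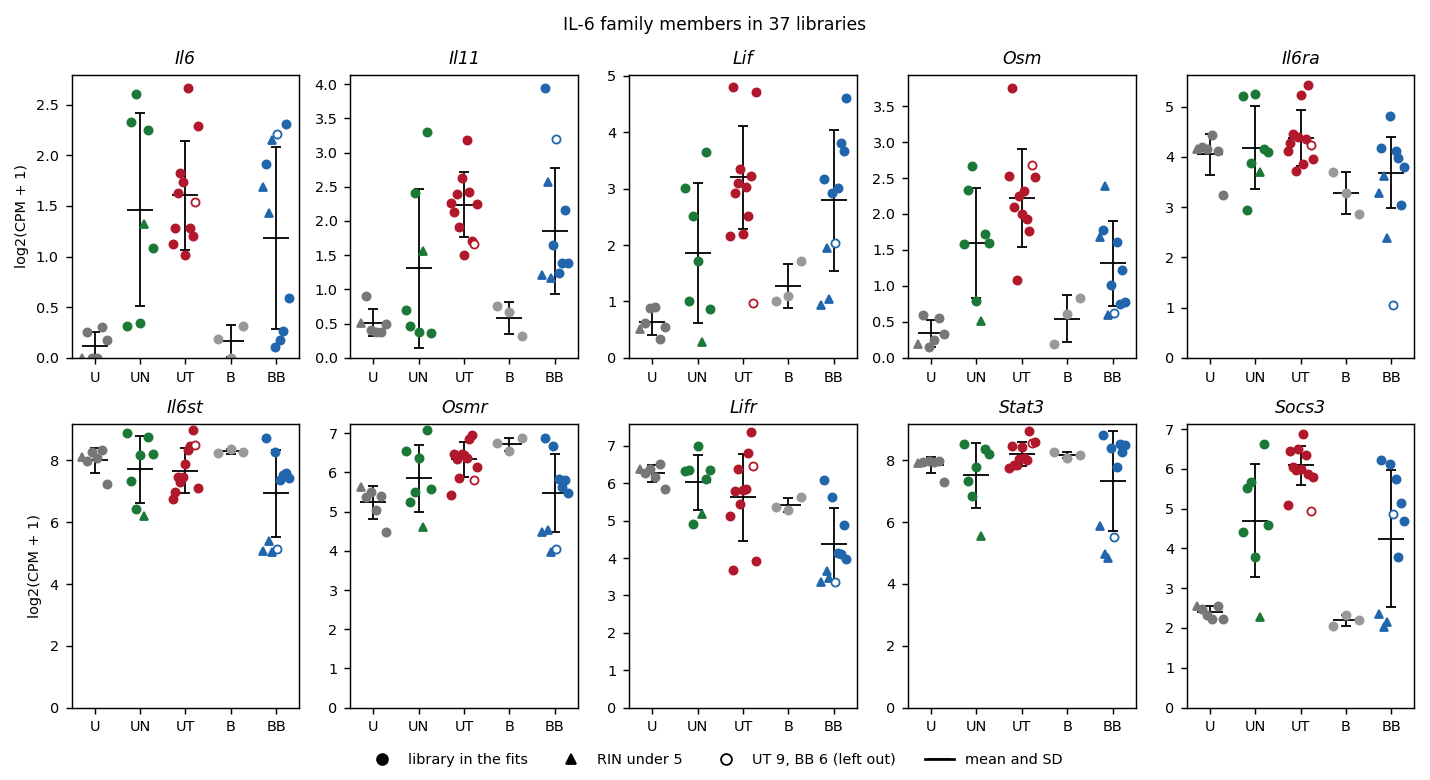
Level of each member as log2(CPM + 1) in the 37 libraries, with 1 point per library and bars for the mean and SD over the libraries of the fits. Filled circles are libraries of the fits, triangles those with RIN under 5, and open circles UT 9 and BB 6. The cytokines and Socs3 are low in U and B, while the ranges of Il6ra, Il6st, Osmr, Lifr and Stat3 in U and UT overlap.

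The receptor chains and Stat3 behaved otherwise in UT. Osmr, the oncostatin M receptor chain, ranged from 21.4 to 48.4 CPM in U and from 41.7 to 123 CPM in UT. All but 1 of the UT libraries were above every U library. The fitted log2 fold change was 0.81 (SE 0.23, edgeR FDR = 0.00566), which passed the FDR but not the 2-fold limit. Mean CPM was 2.19 times higher in UT, a larger ratio than the fitted one because TMM scaling factors were 0.812 to 0.945 in U and 0.994 to 1.22 in UT.

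Il6st, the shared signaling chain, ranged from 106 to 503 CPM in UT and from 149.6 to 324 CPM in U, with a log2 fold change of -0.54 (SE 0.32, edgeR FDR = 0.169). Lifr, the leukemia inhibitory factor receptor chain, ranged from 11.7 to 165 CPM in UT and from 56.1 to 90.7 CPM in U. Its log2 fold change was -0.63 (SE 0.39, edgeR FDR = 0.190). In both genes UT spread on either side of U, and UT 8 was the highest library.

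Il6ra, the chain that binds IL-6 itself, ranged from 12.1 to 41.8 CPM in UT and from 8.46 to 20.6 CPM in U, with a log2 fold change of 0.073 (SE 0.28, edgeR FDR = 0.851). Stat3 ranged from 214 to 488 CPM in UT and from 156.1 to 252 CPM in U, with a log2 fold change of 0.061 (SE 0.24, edgeR FDR = 0.855). The sign of the last 2 values changed under other settings. Il6ra overlaps an antisense gene, Gm42809, and Stat3 overlaps Stat5a, which lies on the opposite strand. The library kits do not mark strand, so reads in those overlaps cannot be assigned.

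Levels of different genes were compared only per kilobase of exon. On that scale Stat3 (31.7 CPM per kb), Socs3 (24.5) and Il6st (20.6) were the highest members in UT, on average over the 10 libraries. The cytokines lay between 0.930 CPM per kb for Il6 and 2.36 for Lif. In U, Socs3 was at 1.48 CPM per kb, below Stat3 at 24.3 and Il6st at 23.7, and the cytokines were between 0.0379 and 0.210.

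The second comparison asked whether the BBN-exposed ureter without cancer already differed from untreated ureter. Over the same 15615 genes, 11.9% were called higher in UN than in U and 1.65% lower. The same 5 members were called higher and none lower. The median log2 fold change was 1.42 over the members and 0.081 over all genes. The untreated libraries were the same as in the first comparison, so the 2 sets of values are not independent.

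Il6 ranged from 0.241 to 5.08 CPM in UN (median 1.497). The lowest of these, in UN 1, was just above the highest U library at 0.231 CPM. The fitted log2 fold change was 4.56 (SE 0.85, edgeR FDR = 0.00205). Il11 ranged from 0.289 to 8.85 CPM in UN (median 0.621), and 3 of the 7 UN libraries were above all U libraries while UN 9 was below them.

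The log2 fold change of Il11 was 2.24 (SE 0.66, edgeR FDR = 0.0284), and UN 7, at 8.85 CPM, carried much of it. Without UN 7 the log2 fold change was 1.55 and the call was lost (edgeR FDR = 0.107). Lif ranged from 0.214 to 11.5 CPM (median 2.28), with 5 of 7 UN libraries above all U libraries and UN 6 below them. Its log2 fold change was 2.52 (SE 0.65, edgeR FDR = 0.0143).

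Osm ranged from 0.428 to 5.34 CPM in UN (median 2.02), and 6 of 7 libraries were above every U library. The fitted log2 fold change was 3.06 (SE 0.61, edgeR FDR = 0.00320). Socs3 ranged from 3.85 to 97.8 CPM (median 22.9), with a log2 fold change of 2.91 (SE 0.43, edgeR FDR = 6.63e-04). Only UN 6, at 3.85 CPM, lay within the range of U. UN 6 had 4675081 counts, the fewest of the ureter libraries, and a RIN under 5.

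All 5 calls held without the libraries of RIN under 5 and without UN 2, which had almost no urothelial RNA. When the counts of the 2 ureters of each mouse in the same group were summed, leaving 3 untreated mice, 0.982% of all genes were called in either direction, against 13.5% with each ureter as a library. Of the members 2 were called, Il6 (edgeR FDR = 0.0825) and Socs3 (edgeR FDR = 0.0765). The log2 fold changes of the other 3 were between 2.23 and 3.05 in that fit, with FDR from 0.112 to 0.237. Fitted without UT, 3 members were called (Lif, Osm and Socs3), since Il6 and Il11 then did not pass the filter on low counts.

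Osmr ranged from 23.5 to 134 CPM in UN, with a log2 fold change of 0.61 (SE 0.24, edgeR FDR = 0.0905) that did not reach 2-fold. Il6ra, Il6st, Lifr and Stat3 had log2 fold changes between -0.27 and 0.16, with edgeR FDR from 0.511 to 0.796. Their UN libraries spread widely, for Il6st from 73.4 to 468 CPM and for Stat3 from 46.0 to 363 CPM. UN 6 was the lowest UN library for both.

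**Figure D2:**
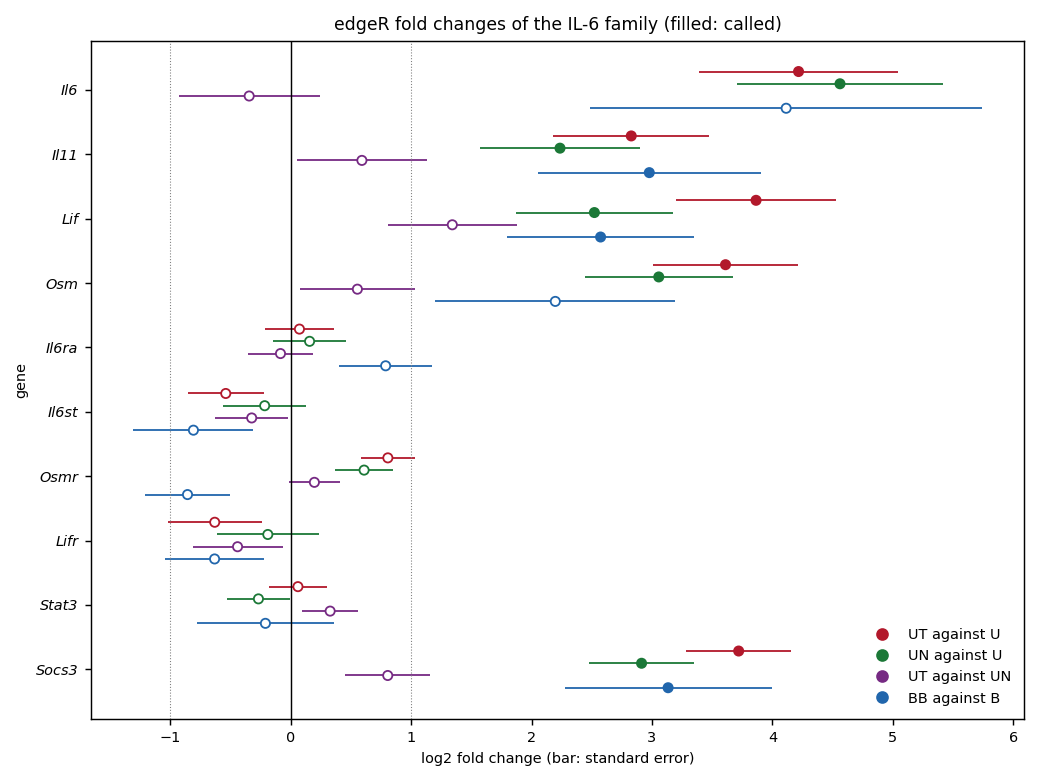
Log2 fold change of each member in 4 comparisons, with bars for the standard error and filled points for calls at FDR under 0.1 and at least 2-fold (dotted lines). Il6, Il11, Lif, Osm and Socs3 lie right of the 2-fold line against untreated ureter, from 2.24 for Il11 in UN to 4.56 for Il6 in UN.

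The third comparison, UT against UN, set the cancer side against the other side in BBN-treated mice. Of all genes tested, 2.80% were called higher in UT and 7.97% lower, and 0 of the 10 members were called with edgeR, while 2 had an unadjusted p under 0.05. Those 2 were Lif, with a log2 fold change of 1.34 (SE 0.54, edgeR FDR = 0.103), and Socs3, with 0.81 (SE 0.35, edgeR FDR = 0.130). The number of calls over all genes depended on the libraries in the fit. Fitted on UT and UN only, 1 gene was called higher and 0 lower, against 438 and 1245 with U in the fit. With summed ureters it was 4 and 0, without the libraries of RIN under 5 it was 4 and 1, and with the earlier library codes only it was 17 and 9. With single libraries left out, it ranged from 168 higher and 367 lower without UN 6 to 928 higher without UN 7 and 1663 lower without UN 3, and 5.52% of all genes were called with UT 9 added. DESeq2 called 1 member, Lif (adjusted p = 0.0519). Lif was also called by edgeR when any one of UN 1, UN 3, UT 1, UT 4, UT 5L, UT 6, UT 7 and UT 8 was left out. Without UN 7, the UN library highest in Il11, Lif, Osmr and Socs3, edgeR called 3 members higher in UT, Il11 (FDR = 0.0907), Lif (FDR = 0.0313) and Socs3 (FDR = 0.0282).

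In 6 mice, UT and UN libraries of the fit came from the same animal. Mouse 9, whose UT 9 was not in the fit, gave 29.6 CPM of Socs3 in UT and 22.9 in UN, and was also higher in UT for Il6, Il11, Osm and Lif. Among the 6 mice, 5 had more Socs3 in UT, with a mean difference of 1.42 ± 1.76 (SD, n = 6) in log2(CPM + 1). Mouse 6 had the widest gap, from 3.85 CPM in UN 6, of low RIN and the fewest counts in UN, to 117 CPM in UT, and without it the mean was 0.780 ± 0.909 (SD, n = 5). Mouse 7 was the exception with 97.8 and 80.0 CPM. Osm was also higher in UT in 5 of 6 mice, by 0.684 ± 0.876 (SD, n = 6).

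Il11 and Lif were higher in UT in 4 of 6 mice, by 0.916 ± 1.10 and 1.06 ± 1.96 (SD, n = 6), and without mouse 2 the mean of Lif was 0.513 ± 1.61 (SD, n = 5). Il6 was higher in 3 mice and lower in 3, with a mean difference of 0.108 ± 1.23 (SD, n = 6) whose sign changed when mouse 1, mouse 4 or mouse 6 was left out (-0.034, -0.166 and -0.139). In a fit of the 6 paired mice only, with the mouse as a block, 0 of 10 members and 0 of all 14868 genes tested were called with edgeR, and none of the members had p under 0.05 before adjustment. Adding RIN as a covariate gave 0 calls as well, with none under 0.05 before adjustment, and the log2 fold change of Lif was 0.38 and that of Socs3 0.42.

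**Figure D3:**
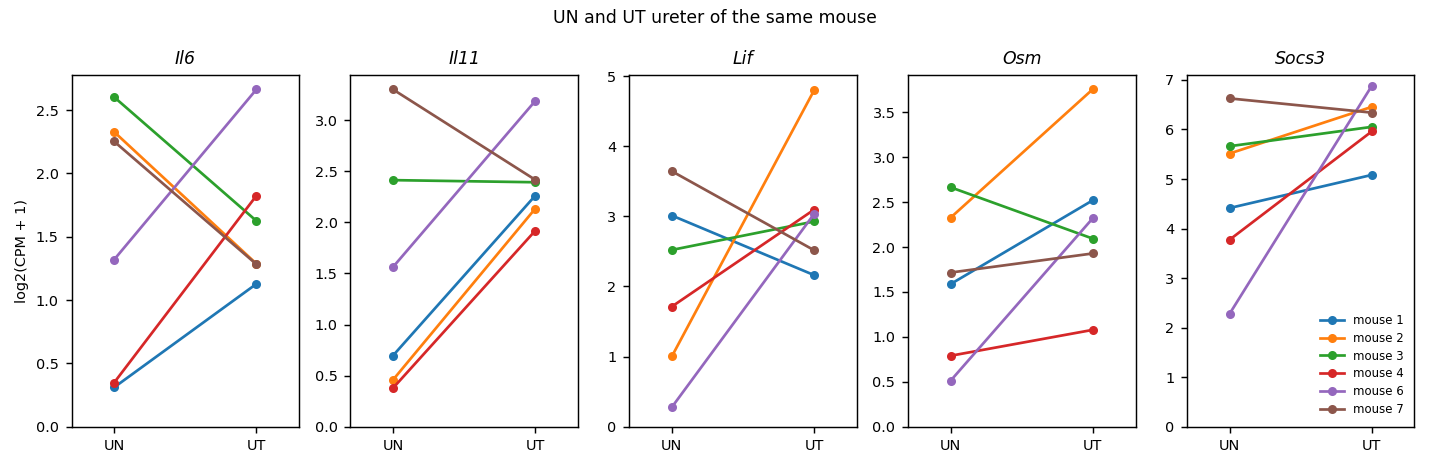
Level of the 4 cytokines and Socs3, as log2(CPM + 1), in the UN and UT ureter of 6 mice, with a line joining the libraries of each mouse. Socs3 and Osm are higher in UT in 5 of 6 mice, while the lines of Il6 cross.

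The fourth comparison asked about BBN in the bladder. Over 17984 genes tested, 7.08% were called higher in BB than in B and 5.47% lower. Of the members, 3 were called higher and none lower. The median log2 fold change was 1.49 over the members and 0.23 over all genes. The latter was 0.044 without the 3 BB libraries of RIN under 5 and 0.11 with RIN as a covariate.

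Socs3 was 3.14, 4.00 and 3.61 CPM in the 3 B libraries and ranged from 3.09 to 73.1 CPM in BB (median 24.8). The 3 BB libraries with a RIN under 5 (BB 1, BB 3 and BB 4) had 4.10, 3.09 and 3.45 CPM, about the level of B, and the other 6 ranged from 12.7 to 73.1 CPM. The log2 fold change was 3.13 (SE 0.86, edgeR FDR = 0.0353). Whether RNA quality set these low values was not tested.

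Il11 was 0.696, 0.587 and 0.249 CPM in B and ranged from 1.24 to 14.4 CPM in BB (median 1.62), without overlap. Its log2 fold change was 2.98 (SE 0.93, edgeR FDR = 0.0621). Lif was 1.01, 1.13 and 2.29 CPM in B and ranged from 0.912 to 23.4 CPM in BB (median 7.02). Of the 9 BB libraries, 7 were above all B libraries, and the log2 fold change was 2.57 (SE 0.77, edgeR FDR = 0.0540).

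Il6 was 0.139, 0 and 0.241 CPM in B, from 2, 0 and 4 counts. In BB it fell into a low set, BB 5, BB 7, BB 8 and BB 10, between 0.0787 and 0.505 CPM, and a set of 5 between 1.69 and 3.97 CPM. The 3 libraries of low RIN were all in the second set for Il6, unlike for Socs3. The log2 fold change of 4.11 (SE 1.63, edgeR FDR = 0.136) was not called, while DESeq2 called it (adjusted p = 0.00918).

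Osm was 0.139, 0.533 and 0.782 CPM in B and ranged from 0.511 to 4.22 CPM in BB (median 1.32). The groups overlapped, and the log2 fold change of 2.197 (SE 0.998, edgeR FDR = 0.170) was not called. DESeq2 called Osm too (adjusted p = 0.0361), and 5 members in all, while it called 31.1% of all genes against 12.6% with edgeR. BB 6 had 3.62 CPM of Il6, 8.21 of Il11, 3.11 of Lif, 0.543 of Osm and 28.3 of Socs3.

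The receptor chains had negative fold changes in the bladder, apart from Il6ra. Osmr was 107, 92.2 and 116 CPM in B and ranged from 14.7 to 116 CPM in BB, with 7 of 9 BB libraries below all B libraries. The fitted log2 fold change was -0.86 (SE 0.35, edgeR FDR = 0.147). Il6st (-0.81, SE 0.50, edgeR FDR = 0.289) and Lifr (-0.63, SE 0.41, edgeR FDR = 0.313) also had 7 of 9 BB libraries below all B libraries. The libraries of low RIN, BB 1, BB 3 and BB 4, were the lowest in BB for each of these chains. Whether RNA quality set their low values was not tested.

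Il6ra was 11.9, 8.72 and 6.32 CPM in B and ranged from 4.22 to 27.0 CPM in BB, with a log2 fold change of 0.79 (SE 0.38, edgeR FDR = 0.191). For Stat3 the log2 fold change was -0.21 (SE 0.57, edgeR FDR = 0.837), and the 3 low-RIN libraries were among the 4 below B. With only 3 B libraries the bladder calls were fragile. Leaving out any single B library, B 1, B 2 or B 3, left 0 members called with edgeR. Of all genes, 5.17%, 5.39% and 5.33% were called in these 3 fits, against 12.6% with all B libraries. In them 3 to 4 members still had an unadjusted p under 0.05. Without the 3 low-RIN libraries the same 3 members were called, beside 22.3% of all genes. Within the earlier of 2 ranges of library codes 2 were called, Il11 and Socs3, beside 20.7% of all genes.

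The effect of BBN in the ureter (UN against U) was then compared with that in the bladder (BB against B) by an interaction term. Over 18757 genes tested, 1.65% were called higher and 0.682% lower in this difference. Of the members, 1 was called, Osmr, with a difference of 1.48 on the log2 scale (SE 0.44, edgeR FDR = 0.0976). The BBN change of Osmr was positive in ureter and negative in bladder, and neither was called by itself. The call lay at the threshold and was lost under 22 of 35 alternatives. Over all 35 the difference stayed between 1.25 and 1.63, with FDR up to 0.390, and leaving out any B or U library lost the call.

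For the other 9 members the difference lay between -0.73 (Il11, SE 1.15) and 0.89 (Osm, SE 1.01), with edgeR FDR from 0.622 to 0.999. The standard errors of the cytokine differences, from 1.01 to 1.64 on the log2 scale, exceeded a 2-fold difference. A difference of this size between the organs was therefore not detectable for them in this fit. The fit held no term for the mouse, although UN and BB libraries, and U and B libraries, shared mice.

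Untreated ureter and untreated bladder also differed in the receptor chains. In U against B, 7.04% of 18757 genes were called higher and 8.73% lower. Of the members, 2 were called higher in U, Il6ra with a log2 fold change of 1.15 (SE 0.41, edgeR FDR = 0.0650) and Lifr with 1.17 (SE 0.43, edgeR FDR = 0.0720). Osmr was called lower, at -1.17 (SE 0.35, edgeR FDR = 0.0262).

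Lifr was 39.9, 37.8 and 48.8 CPM in B and 56.1 to 90.7 CPM in U, with no overlap, and Osmr did not overlap either. In all 3 untreated mice Il6ra and Lifr were higher in the mean of the 2 ureters than in the bladder, and Osmr was lower. In a fit of U and B only, with the mouse as a block, 30.0% of 15318 genes were called, against 15.8% of 18757 in the fit of 4 groups without it. Which of these changes raised the share was not tested. In the fit with the block 4 members were called, Lif being added as lower in U (log2 fold change -1.005, edgeR FDR = 0.0701). With the 2 ureters of each mouse summed, 0 members were called with edgeR (3 with an unadjusted p under 0.05), beside 8.09% of all genes. The FDR was 0.154 to 0.198 for the 3 members. Without B 3, 0 members were called (2 with p under 0.05 before adjustment), beside 9.44% of all genes. Without B 2 or U 2L only Osmr was called, beside 10.5% and 13.4% of all genes. The call of Lifr was also lost without B 1, U 1R, U 2R or U 3R, that of Osmr with RIN as a covariate (log2 fold change -0.96), and that of Il6ra with the bladder of mouse 6 added (edgeR FDR = 0.1495). Adipocyte markers were higher in U, 5 of 5 being called, and urothelial markers lower, 4 of 6 being called. Their part in these differences was not tested.

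Other genes of the pathway were taken from hand-written lists. Among further ligand genes, Clcf1, which encodes a secreted cytokine that signals through gp130, was called higher in UT than in U (log2 fold change 2.32, SE 0.35, edgeR FDR = 3.93e-05). Ebi3, a subunit of IL-27, was called higher as well (1.54, SE 0.47, edgeR FDR = 0.0101). Clcf1 was also called higher in UN against U, by 1.49 on the log2 scale, and in BB against B, by 1.65.

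Cntfr, the receptor chain for ciliary neurotrophic factor, was called lower in each of the same comparisons. It ranged from 10.7 to 15.7 CPM in U and from 0.0661 to 2.63 CPM in UT, with no overlap, and fell by 3.67 on the log2 scale (SE 0.51, edgeR FDR = 2.54e-05).

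Il11ra1, the receptor that binds IL-11, was called lower in UT than in both U (log2 fold change -1.03, SE 0.36, edgeR FDR = 0.0206) and UN (-1.03, SE 0.34, edgeR FDR = 0.0622). The call between UT and UN was lost in edgeR when UT and UN were fitted without U, which left 0 genes called lower, in the fit of paired mice with a block, and with RIN as a covariate. Its level was 50.4 to 73.1 CPM in U, 34.1 to 105 CPM in UN and 7.44 to 75.9 CPM in UT. Of the 4 further receptor genes, 3 were tested in the ureter, and 2 were called lower in UT than in UN, beside 7.97% of all genes. In the same comparison 4 of 5 smooth muscle markers were called lower, and their part in this was not tested.

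Of 9 kinase and transducer genes, UT against U gave 1 call in each direction, beside 18.6% of all genes higher and 14.4% lower, so that calls were no more frequent in this list than over all genes. Jak2, one of the kinases bound to gp130, rose by 1.33 on the log2 scale (SE 0.23, edgeR FDR = 1.06e-04). It ranged from 30.0 to 44.4 CPM in U and from 64.9 to 197 CPM in UT, without overlap. Stat5a, which shares sequence with the opposite strand of Stat3, fell by 2.32 (SE 0.40, edgeR FDR = 1.17e-04). Of 7 negative regulators other than Socs3, 3 were called higher in UT than in U (18.6% of all genes), Ptpn6 (2.06), Socs1 (1.85) and Ptpn1 (1.59). In BB against B, 1 was called higher (7.08% of all genes), Socs2 (2.23).

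A list of 21 genes reported elsewhere as STAT3 targets was counted in the same way. In UT against U, 15 of 21 were called higher and none lower, beside 18.6% of all genes, with a median log2 fold change of 1.94 against 0.077. In UN against U, 12 were called higher beside 11.9% of all genes, with medians of 1.29 and 0.081. In UT against UN 1 was called higher beside 2.80% of all genes, Icam1 (1.07), and in BB against B 5 were called higher beside 7.08%. The largest changes in UT and UN against U were in Lcn2 (7.81 and 7.80), Timp1 (6.02 and 5.68) and Saa3 (4.44 and 5.50), which encode an iron-binding protein of neutrophils and epithelia, a protease inhibitor and an acute-phase protein. Among the called genes of the list in the bladder, Lcn2 (7.86) came before Birc5 (4.97) and Timp1 (2.65), while Saa3 had 5.83 without a call (edgeR FDR = 0.103). Several of these genes are also targets of other inflammatory and growth pathways, and the list was not a test of STAT3.

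**Figure D4:**
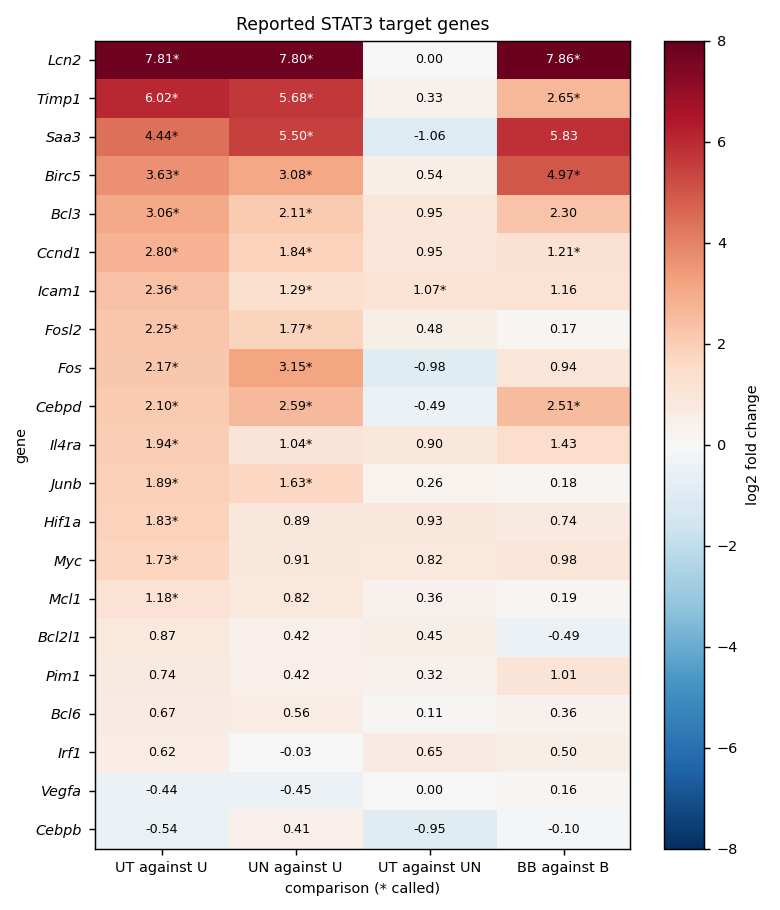
Log2 fold change of 21 genes reported as STAT3 targets in 4 comparisons, ordered by UT against U, with an asterisk for calls and colour for the value. Of the 21, 15 are called in UT against U, 12 in UN against U, 1 in UT against UN and 5 in BB against B.

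Markers of some immune cells also differed in these comparisons. Of 6 neutrophil markers, 5 were in the table, and all 5 were called higher in UT and in UN than in U. Their sum was 11.4 to 23.9 CPM in U, 63.5 to 528 in UN and 41.3 to 627 in UT. In the bladder, 3 neutrophil markers were called higher, and the sum was 8.62 to 10.9 CPM in B and 17.001 to 232 in BB. Macrophage markers were called higher for 3 of 6 in UT and in UN against U, with sums of 266 to 409 CPM in U, 161 to 2028 in UN and 343 to 1461 in UT. In BB against B, 1 of 6 macrophage markers was called higher. T cell markers, 5 of 6 in the table, were called higher for 4 in UT against U. In UN against U edgeR called 0 of these 5 (2 with an unadjusted p under 0.05), and in BB against B 0 (0 with an unadjusted p under 0.05). No marker of these lists was at 0 throughout a group. The part of these cells in the cytokine levels was not tested.

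Smooth muscle and adipocyte markers moved in the other direction. All 5 of each list were called lower in UT than in U, with sums of 186 to 1926 CPM against 1532 to 2911 for smooth muscle. In UN against U, where the 5 members were called higher, edgeR called 0 of 5 in both lists, and 0 had an unadjusted p under 0.05. The adipocyte sum nevertheless ranged from 8256 to 48652 CPM in UN and was below the lowest U library in 5 of 7, and the log2 fold changes of its 5 genes lay between -1.46 and -0.78.

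Within groups, the genes whose levels followed each member most closely were named by correlation of deviations from the group means in log2(CPM + 1), over 35 libraries and 15398 genes. These points share libraries, mice and RNA quality, and the coefficients are descriptions. Osm went with Tarm1 (r = 0.77), Clec4e (0.76) and S100a9 (0.71), which are all myeloid genes. Socs3 went with Myd88 (0.90), Sbno2 (0.89) and Ctsc (0.89). Lif went with Haus6 (0.93), Kif23 (0.92) and Fanca (0.92), of which Haus6 and Kif23 act in cell division.

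Il11 went with Bdkrb1 (0.78), Tmem190 (0.69) and Snai1 (0.67). Il6 went with Mcemp1 (0.71), Cdkn3 (0.71) and Cks1b (0.69). Among the members themselves, Il6st went with Osmr (0.90), Stat3 (0.87) and Lifr (0.76). Among the 9 BB libraries, the 3 of low RIN were the 3 lowest for each of these 4 genes. Il6 and Il6ra had opposite deviations (-0.71), and the coefficient of Il6 with Socs3 was 0.075.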

How the data were processed

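RNA of ureters and bladders was sequenced with SMARTer HT and Nextera XT kits. The authors deposited estimated counts per gene symbol, without normalization and 21.1% fractional among nonzero values. Per the labels' processing notes, TopHat2 2.1.1, Cuffdiff 2.2.1 and the GRCm38/mm10 genome were used, and the counting program is not given in the sources used here. Values were rounded to whole numbers and tested with edgeR 4.0.16 in R 4.3.3 (TMM, filterByExpr, quasi-likelihood fit), Benjamini-Hochberg adjusted over all genes. One fit held UT, UN and U, another BB and B, and the last UN, U, BB and B for the interaction and U against B. The thresholds are those of the study's methods. CPM, summaries and figures were made in Python 3.11.15. Exon lengths and coordinates are from GENCODE vM21.

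The members, gene lists and markers were chosen with earlier results of these data known. All 10 members are named in every comparison, from each pathway list at most the 3 called genes of largest change (1 gene of the ligand list, and the count of that list, are not reported here), and for the cytokines and Socs3 the 3 genes of closest pattern with a mean of at least 1 CPM. UT and UN libraries that share a number were taken from one mouse. The correlation of their deviations had a median of -0.031 over 6 pairs and -0.0021 over 64 pairs of different mice. Libraries of 1 group differed by more than sampling noise in each group (chi-square per degree of freedom of at least 7.37), so none was counted as a copy. The 2 ureters of a mouse entered the fits as separate libraries. P-values measure the spread between these libraries. The script was tested on simulated data. DESeq2 1.42.0, RLE scaling, no filter, a mouse block, covariates, summed ureters and left-out libraries were alternatives. Alternatives within the first range of library codes, and the removal of all libraries of RIN under 5, were chosen after seeing the data. The number of value columns left without a sample was 0.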

Additional observations from a re-analysis of the deposited data

Results flagged for a closer look

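Single libraries stood apart from the rest of their group in 5 of 40 sets of member and group, each of 6 to 10 libraries, while chance marks about 1 in 20 such sets. In U, library 3L was lowest in 3 of them, with Il6ra at 8.46 CPM (next lowest 16.3), Il6st at 149.6 (next 252) and Stat3 at 156.1 (next 240.0). The same library had the highest sum of adipocyte markers in U, 56194 CPM, and the lowest TMM factor in U, 0.812. U 1L was highest for Il11, at 0.865 CPM against 0.424 in the next library, and BB 2 was highest for Il11, at 14.4 CPM against 4.91.

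The response of Osmr to BBN differed between the organs by 1.48 on the log2 scale in the interaction term (SE 0.44, edgeR FDR = 0.0976), a call at the threshold. It was lost under 22 of 35 alternatives, among them each left-out U or B library and the sum of both ureters of a mouse (edgeR FDR = 0.390). The 3 B libraries were between 92.2 and 116 CPM and the 6 U libraries between 21.4 and 48.4 CPM. Mean Osmr was 65.8 ± 38.9 CPM in UN (SD, n = 7) and 53.2 ± 35.1 CPM in BB (SD, n = 9). Urothelial markers were called lower in BB than in B for 4 of 6 genes. Their part in the Osmr difference was not tested.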

How the results depend on the processing

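The 5 calls in UT against U were kept in all 33 alternatives, with lowest and highest log2 fold changes of 3.91 and 4.64 for Il6 and 3.29 and 3.81 for Socs3. Over all members and comparisons, 1734 alternative values kept their direction and side of the threshold, 52 lost a call, 19 gained one and 59 changed sign, none of them a value called in the report. The number of members called was 2 with summed ureters and 3 with only the 2 groups in UN against U, and 1 (Lif) with DESeq2 and with RLE in UT against UN. It was 5 with DESeq2 and 5 with the library code range as a covariate in BB against B. Of all genes, 31.1% and 30.0% were called there, against 12.6% in the reported fit. In the interaction 0 were called with summed ureters, within the first code range, with the code range as a covariate, without a filter and with the bladder of mouse 6. In U against B 0 were called with summed ureters. Leaving out each library gave 5 to 5 called in UT against U, 4 to 5 in UN against U, 0 to 3 in UT against UN, 0 to 4 in BB against B, 0 to 1 in the interaction and 0 to 3 in U against B. The cause of these changes was not tested.

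With the mouse as a replicate block, in the 6 paired mice only, the log2 fold change of Il6 in UT against UN was 0.070, and no other member changed sign there. Without the block edgeR with TMM called no member either, while DESeq2 and edgeR with RLE called Lif. With RIN as a covariate it was 0.15 for Il6ra and -0.0054 for Osm in UT against UN, 0.15 for Stat3 in BB against B and -0.16 for Stat3 in UT against U. Within the first code range it was -0.017 for Il6ra and -0.073 for Stat3 in UT against U, and with the code range as a covariate -0.10 for Stat3. The interaction of Lif was 0.90, 0.49 and 0.036, and that of Stat3 0.14, 0.15 and 0.068, within the first code range, with the code range as a covariate and with the bladder of mouse 6. Stat3 in BB against B was 0.23 without BB libraries of RIN under 5.

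Leaving out each library also changed the sign of small values. For U against B the ranges were -0.23 to 0.38 for Il11, -0.73 to 0.62 for Il6, -0.0048 to 0.16 for Il6st, -0.93 to 0.037 for Osm and -0.051 to 0.077 for Stat3. For the interaction they were -0.35 to 1.01 for Il6, -0.52 to 0.32 for Lif, -0.54 to 0.015 for Socs3 and -0.17 to 0.12 for Stat3. For Il6ra they were -0.061 to 0.28 in UN against U, -0.052 to 0.17 in UT against U and -0.21 to 0.14 in UT against UN, and for Stat3 in UT against U -0.012 to 0.12. Counts of 0 to 3 for Il6 in U limit its fold change, and the 3 B libraries limit every bladder call. The median of all genes in BB against B was 0.23 with TMM, 0.32 with RLE, 0.11 with RIN as a covariate and 0.044 without BB libraries of RIN under 5.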
